A study of Mus musculus with 12 samples.

Results

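The Zscan4 genes are a tandem family on mouse chromosome 7 whose copies encode SCAN-domain zinc finger proteins. All rows of the deposited gene table named Zscan4b, Zscan4c, Zscan4d, Zscan4e, Zscan4f and Zscan4-ps2 were taken, which gave 6 of 26061 rows. No other row of that table has a symbol that starts with Zscan4. The study sequenced ribosomal RNA-depleted, directional libraries from E14 mouse embryonic stem cells of the 129/Ola background, grown on gelatin without feeder cells. It crossed Setdb1 depletion with the culture medium in 4 groups of 3 libraries. The 2i shSetdb1 group was grown with N2, B27, LIF and 2 inhibitors, PD0325901 of MEK and CHIR99021 of GSK3, and carried a lentiviral pLKO.1 short hairpin RNA against Setdb1. Its control, 2i shScr, carried a non-targeting hairpin in the same medium. The serum shSetdb1 and serum shScr groups carried the same kinds of hairpin in medium with fetal bovine serum and LIF. Transduced cells of all 4 groups were selected with puromycin and collected after 3 days of selection. The labels name the hairpin only by its target, so effects of the hairpin other than on Setdb1 cannot be told apart from those of Setdb1 depletion. Nor do they say whether a group's libraries are separate cultures, and p-values therefore reflect the spread between these libraries only, which may be technical.

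Zscan4 is first transcribed when the mouse embryo activates its own genome at the 2-cell stage. In embryonic stem cell cultures it is expressed by a small, changing minority of cells, which also transcribe the endogenous retrovirus MERVL and other 2-cell-stage genes, and it is known for its part in telomere lengthening by recombination. Zscan4d was described as the main copy in 2-cell embryos and Zscan4c as a main copy in stem cells. SETDB1 is a histone H3 lysine 9 methyltransferase that silences endogenous retroviruses in these cells, and the transcription factor DUX is an activator of both MERVL and Zscan4. Since each library pools many cells, a lower number of Zscan4-positive cells and less Zscan4 RNA per positive cell cannot be told apart in what follows.

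The copies are close to identical, which limits how far a read can be assigned to 1 of them. In the GENCODE M21 annotation of GRCm38 all 6 have a protein-coding transcript on chromosome 7, whereas RefSeq lists Zscan4e and Zscan4-ps2 as pseudogenes. Coding sequences are 1515 bases long in Zscan4b and Zscan4e and 1518 bases in the other copies, and the 15 pairs are 96.6% to 99.7% identical over aligned coding bases. Zscan4b and Zscan4e are the closest pair together with Zscan4f and Zscan4-ps2, both at 99.7%. Of the 50-base words in a copy's longest transcript, 42.8% in Zscan4d and between 81.1% and 95.3% in the other copies also occur in another member. Shown are the 90 ungapped coding bases with the most positions that vary, positions 635 to 724 of the coding sequence in GENCODE transcripts. Transcript outside the coding sequence was not searched for such a stretch. Capitals in Zscan4c mark the 11 positions that vary, and capitals in the other copies mark bases unlike Zscan4c.
Zscan4b: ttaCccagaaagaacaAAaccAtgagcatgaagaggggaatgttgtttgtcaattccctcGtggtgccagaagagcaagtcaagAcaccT
Zscan4c: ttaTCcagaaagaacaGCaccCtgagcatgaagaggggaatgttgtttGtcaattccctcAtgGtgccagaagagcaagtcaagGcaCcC
Zscan4d: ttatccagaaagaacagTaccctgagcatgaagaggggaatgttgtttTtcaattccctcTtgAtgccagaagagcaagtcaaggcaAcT
Zscan4e: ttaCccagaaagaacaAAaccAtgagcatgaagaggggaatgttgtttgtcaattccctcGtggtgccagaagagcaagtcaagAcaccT
Zscan4f: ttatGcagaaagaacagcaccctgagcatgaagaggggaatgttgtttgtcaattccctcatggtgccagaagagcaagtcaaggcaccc
Zscan4-ps2: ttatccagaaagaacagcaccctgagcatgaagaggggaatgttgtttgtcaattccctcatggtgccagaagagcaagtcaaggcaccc
In this stretch Zscan4b and Zscan4e carry the same bases, and Zscan4-ps2 is identical to Zscan4c, so reads within it separate neither pair. Zscan4f differs from Zscan4c at 1 position and Zscan4d at 6. No deposited column says how reads that match several copies were counted. The sum over the 6 rows may therefore count a read more than once, and levels of single copies are uncertain in all results below.

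RefSeq promoter windows of GRCm38.p6 were available for 4 of the 6 members, namely Zscan4b (minus strand, chr7:10905001-10905266), Zscan4c (plus strand, chr7:11005506-11005771), Zscan4d (minus strand, chr7:11166133-11166398) and Zscan4f (plus strand, chr7:11397699-11397964). The deposited tables were made on mm9, so these positions are not those of the authors' build. The 266 bases that the windows have in common are shown to compare the copies, and capitals mark a DUX core motif, then a TATA box. Whether these bases bear on the levels below was not tested.
Zscan4b: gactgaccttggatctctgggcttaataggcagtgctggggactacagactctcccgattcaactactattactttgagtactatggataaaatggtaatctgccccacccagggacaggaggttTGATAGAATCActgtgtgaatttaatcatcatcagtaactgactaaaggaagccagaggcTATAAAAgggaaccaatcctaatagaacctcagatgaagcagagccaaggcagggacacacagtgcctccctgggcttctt
Zscan4c: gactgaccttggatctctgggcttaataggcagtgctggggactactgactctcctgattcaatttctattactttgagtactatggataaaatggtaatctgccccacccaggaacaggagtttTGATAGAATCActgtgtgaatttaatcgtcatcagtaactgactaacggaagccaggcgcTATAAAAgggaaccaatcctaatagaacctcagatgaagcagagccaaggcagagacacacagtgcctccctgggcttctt
Zscan4d: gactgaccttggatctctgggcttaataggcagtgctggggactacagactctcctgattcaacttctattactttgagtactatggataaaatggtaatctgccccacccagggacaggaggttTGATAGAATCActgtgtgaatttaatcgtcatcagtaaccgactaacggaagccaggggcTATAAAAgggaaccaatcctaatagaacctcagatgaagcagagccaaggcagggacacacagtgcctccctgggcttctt
Zscan4f: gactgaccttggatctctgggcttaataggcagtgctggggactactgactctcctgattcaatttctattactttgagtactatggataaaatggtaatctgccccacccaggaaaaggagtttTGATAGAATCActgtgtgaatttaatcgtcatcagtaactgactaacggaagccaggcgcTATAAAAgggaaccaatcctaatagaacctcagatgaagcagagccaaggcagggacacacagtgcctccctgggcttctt
Their 6 pairs are 95.9% to 99.2% identical, and 13 of the 266 positions vary. Counted from 1 at the 5′ end of the Zscan4c window, Zscan4f differs from Zscan4c by C117A and A239G, and Zscan4d and Zscan4b share A239G. The DUX core, TGATT and ATCA around any 2 bases, on either strand, was in 4 of 4 windows, against 68 of 32851 RefSeq promoters (0.207%). The TATA box TATAAAA, or TTTTATA, was also in 4 of 4, against 5.48% of promoters. The GATA-factor motif AGATAA, read as TTATCT on the other strand, was in Zscan4b and Zscan4f outside the bases shown, against 11.2% of promoters. It began at −236 from the gene start in both, with the TATA box at −31. In Zscan4c and Zscan4d the TATA box began at −54 and −65, so the matching position lies outside their windows. Whether those 2 copies have the motif there cannot be read. The E-box CACGTG, its own reverse complement, the T-box AGGTGTGA or TCACACCT, and TGCACAC or GTGTGCA, described as a ZSCAN4 site, were in 0 of 4 windows, against 7.15%, 1.28% and 4.396% of promoters. No searched motif overlapped another in these windows, the letters were chosen after the windows had been read, and a match describes the sequence only. Of 23 other 2-cell-stage genes with a RefSeq promoter, 1 held the DUX core, the transporter gene Abcb5.

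Levels are given as normalised reads, which are the whole reads recovered from the deposited values divided by each library's size factor. Total gene reads ranged from 4821181 to 15509401 per library, and the lowest total belonged to 2i shSetdb1 replicate 3. Setdb1 itself had 837, 610 and 340 normalised reads in 2i shSetdb1 against 3607, 2724 and 2253 in 2i shScr, and 418, 379 and 409 in serum shSetdb1 against 2959, 2237 and 1587 in serum shScr. It was lower in both depleted groups, with no overlap (log2 change −2.24 in 2i and −2.33 in serum, limma adjusted p = 0.00173 and 0.00219). All 10 stem cell markers had reads in every library, with sums of 58023 to 79395 in 2i shSetdb1, 65079 to 79141 in 2i shScr, 45387 to 83219 in serum shSetdb1 and 63629 to 84458 in serum shScr. Of the fibroblast markers, Col1a1, Col1a2, Col3a1, Dcn and Postn stayed at or below 15.3 normalised reads, while Thy1, Pdgfrb and Fn1 had reads in every library. Summed primitive endoderm markers ranged over 5.53 to 111, 28.9 to 64.6, 65.2 to 210 and 126 to 157 in these 4 groups, and summed mesoderm markers over 9.14 to 79.9, 124 to 277, 8.63 to 37.3 and 17.1 to 81.7. Structural RNA families took 19.8%, 55.3% and 69.3% of repeat reads in 2i shSetdb1, 31.8%, 38.7% and 64.3% in 2i shScr, 16.02%, 15.3% and 42.4% in serum shSetdb1 and 24.0%, 29.7% and 48.0% in serum shScr. The part of these differences in the Zscan4 results was not tested.

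The 6 rows together had 4057, 75.1 and 1264 normalised reads in 2i shSetdb1 replicates 1 to 3, and 146, 18.6 and 7.04 in 2i shScr. In serum they had 3584, 14328 and 13665 in serum shSetdb1, and 3927, 19311 and 5804 in serum shScr. All 3 control libraries in 2i were lower than all 6 libraries in serum, while the Setdb1-depleted 2i libraries ran from below the highest 2i control to above the lowest serum library. Recovered reads behind these sums numbered 5278, 74 and 457 in 2i shSetdb1 and 202, 27 and 6 in 2i shScr. The serum sums rested on 3618 to 21737 reads, so they are far less limited by counting. Within a group the highest library exceeded the lowest 54.0-fold in 2i shSetdb1, 20.7-fold in 2i shScr, 3.998-fold in serum shSetdb1 and 4.92-fold in serum shScr.

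**Figure D1:**
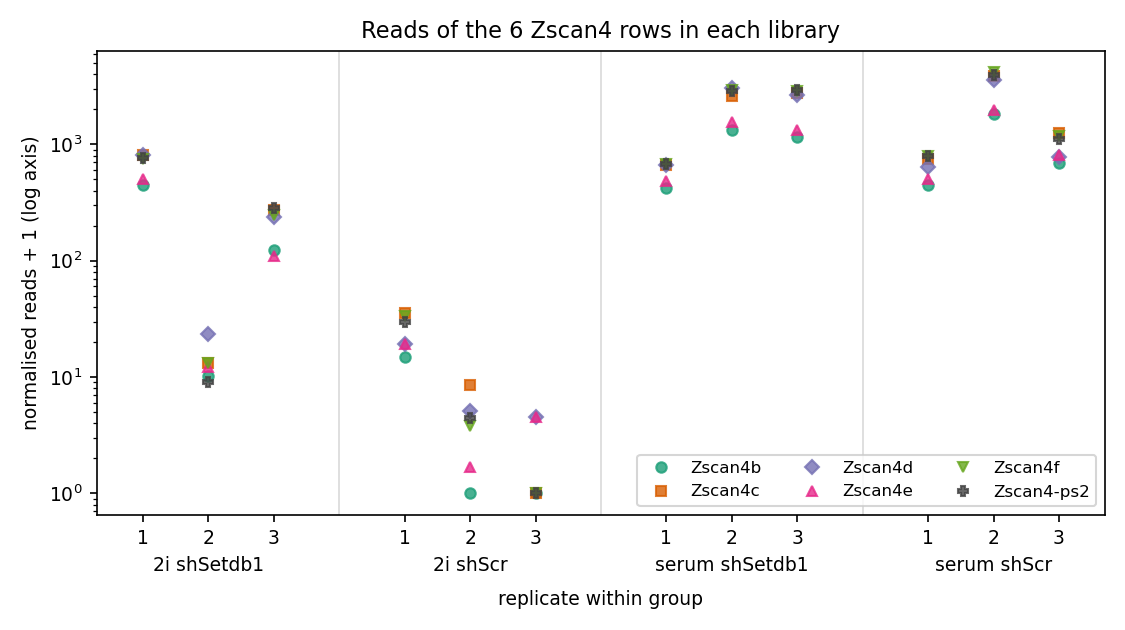
Normalised reads plus 1 (log axis) of each of the 6 Zscan4 rows in the 12 libraries, by group and replicate number, 1 symbol per row. The 6 symbols of a library lie close together where reads are many. The serum libraries lie highest together with 2i shSetdb1 replicate 1, which is level with the lower serum libraries. 2i shSetdb1 replicate 2 lies far below the other replicates of its group.

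Zscan4c had 802, 12.2 and 274 normalised reads in 2i shSetdb1, 34.7, 7.59 and 0 in 2i shScr, 669, 2613 and 2739 in serum shSetdb1 and 753, 3826 and 1241 in serum shScr. Zscan4f had 746, 12.2 and 243 in 2i shSetdb1, 32.5, 2.76 and 0 in 2i shScr, 672, 2923 and 2886 in serum shSetdb1 and 797, 4191 and 1176 in serum shScr. Zscan4d, the main copy of 2-cell embryos, had 802, 22.3 and 235 in 2i shSetdb1, 18.1, 4.14 and 3.52 in 2i shScr, 656, 3039 and 2665 in serum shSetdb1 and 632, 3563 and 774 in serum shScr. In all 3 of these copies replicate 2 of 2i shSetdb1 was the low library of its group and replicate 1 was the high one, and replicate 2 was the high library of serum shScr. Zscan4b had 449, 9.14 and 122 in 2i shSetdb1, 13.7, 0 and 0 in 2i shScr, 423, 1319 and 1148 in serum shSetdb1 and 449, 1833 and 689 in serum shScr. For Zscan4e the values were 502, 11.2 and 108 in 2i shSetdb1, 18.1, 0.690 and 3.52 in 2i shScr, 486, 1566 and 1331 in serum shSetdb1 and 499, 1967 and 805 in serum shScr. Zscan4-ps2 had 756, 8.12 and 282 in 2i shSetdb1, 28.9, 3.45 and 0 in 2i shScr, 678, 2868 and 2896 in serum shSetdb1 and 797, 3931 and 1118 in serum shScr. These 3 copies ordered the libraries of 2i shSetdb1 and of serum shScr in the same way as the first 3. Zscan4c, Zscan4f and Zscan4-ps2 had 0 reads in 2i shScr replicate 3 and Zscan4b had 0 in replicates 2 and 3, which allows up to 0.303 RPM in replicate 3 and 0.206 in replicate 2 (3 reads of the library's total, counting error only).

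Setdb1 depletion in 2i asked whether the loss of this methyltransferase changes Zscan4 in a medium where the control level is low. Summed reads averaged 1799 ± 2044 in 2i shSetdb1 and 57.2 ± 77.0 in 2i shScr (SD, n = 3 each), a ratio of means of 31.5. The 6 copies had ratios between 25.7 for Zscan4c and 42.2 for Zscan4b. On the deposited log2 scale, which compresses low values, their changes ran from 2.10 (SE 0.72) for Zscan4e to 2.62 (SE 0.82) for Zscan4d. None of the 6 passed limma's test adjusted over all 14487 genes tested (adjusted p = 0.208 to 0.333), where 1.27% of all genes passed in either direction; with limma-voom on the recovered reads 0 of 6 passed as well. All 6 had an unadjusted p under 0.05, as had 1067 of all genes tested. Zscan4d alone did not overlap between the groups, and 6.33% of all genes did not overlap in that direction. In the other 5 copies replicate 2 of 2i shSetdb1 lay below replicate 1 of 2i shScr. Without 2i shSetdb1 replicate 2 the changes were 3.00 to 3.82 and 6 of 6 passed. Without 2i shSetdb1 replicate 1 the changes were 1.19 to 1.71 and 0 of 6 passed. With replicate number as a block within each medium 6 of 6 passed (limma adjusted p = 0.00289 to 0.0147). With 1 block across both media 0 of 6 passed (limma adjusted p = 0.113 to 0.184). Replicate numbers did not pair the 2i libraries, so both blocks rest on a shared number only. The ratio of the sums moved to 11.7 without 2i shSetdb1 replicate 1, to 46.5 without replicate 2 of that group, and to 140 without 2i shScr replicate 1.

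Setdb1 depletion in serum gave no detectable shift. Summed reads averaged 10526 ± 6021 in serum shSetdb1 and 9681 ± 8393 in serum shScr (SD, n = 3 each), a ratio of 1.09. The changes of the 6 copies lay between 0.05 (SE 0.73) for Zscan4b and 0.52 (SE 0.82) for Zscan4d on the deposited scale. None passed limma's adjusted test (adjusted p = 1.00 in all 6, and 0 of 6 with voom), against 0.649% of all genes. An unadjusted p under 0.05 was reached by 0 of 6, against 5.09% of all genes tested. The groups overlapped in every copy. Without serum shScr replicate 2, the highest library of all, the ratio was 2.16, and 5 of the 6 copies changed sign without 1 or another library, so no direction can be given.

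The change in 2i exceeded that in serum by 1.99 to 2.41 on the deposited log2 scale, and by 4.46 on the scale of log2 summed reads, where the pooled SD between libraries was 2.00. The difference itself did not pass for any copy (limma adjusted p = 0.9996 in all 6) nor for any other of the 14487 genes (0%), and voom called 0 as well. Zscan4b had an unadjusted p of 0.0374 (limma), and the other 5 copies were above 0.05; 404 of all genes had an unadjusted p under 0.05.

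**Figure D2:**
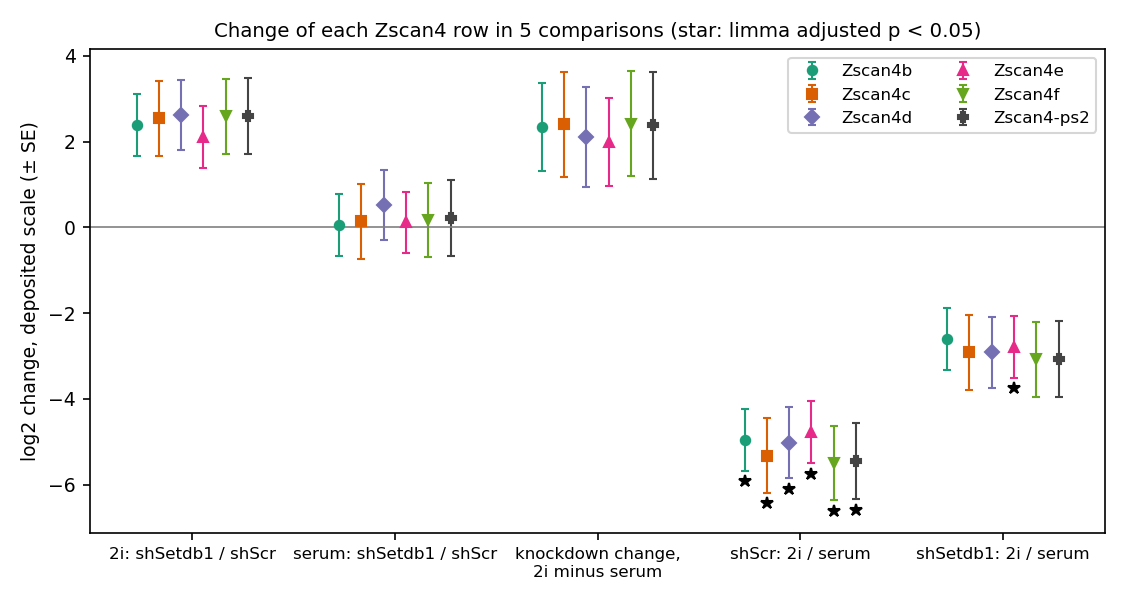
Change of each of the 6 Zscan4 rows on the deposited log2 scale with its standard error in 5 comparisons, from left to right Setdb1 depletion in 2i, Setdb1 depletion in serum, the difference between these changes, and 2i over serum in shScr and in shSetdb1 cells. Stars mark limma adjusted p under 0.05, which all 6 rows reached for 2i over serum in shScr cells and Zscan4e alone in shSetdb1 cells.

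In control cells Zscan4 was far lower in 2i than in serum. Summed reads averaged 57.2 ± 77.0 in 2i shScr and 9681 ± 8393 in serum shScr (SD, n = 3 each), and the serum mean was 169 times the 2i mean. Single copies were 138 times (Zscan4c) to 217 times (Zscan4b) higher in serum shScr. All 6 copies were lower in 2i (log2 change −4.78 to −5.49, SE 0.72 to 0.89, limma adjusted p = 0.00227 to 0.00400), against 1.88% of all genes that passed in that direction. Every 2i shScr library lay below every serum shScr library in 6 of 6 copies, and 12.8% of all genes did not overlap in that direction. The calls were lost with limma-voom on the recovered reads (0 of 6, adjusted p = 0.0591 to 0.107), though the changes there were larger, −7.38 to −9.17. The ratio of the sums, serum over 2i, was 85.1 without serum shScr replicate 2 and 754 without 2i shScr replicate 1.

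Among Setdb1-depleted cells the gap between media was smaller and less certain. Summed reads averaged 1799 ± 2044 in 2i shSetdb1 and 10526 ± 6021 in serum shSetdb1 (SD, n = 3 each), and the serum mean was 5.85 times the 2i mean. The copies changed by −2.61 to −3.08 on the deposited scale (SE 0.72 to 0.89). Zscan4e passed (limma adjusted p = 0.0445) and the other 5 did not (adjusted p = 0.0602 to 0.0775), against 1.60% of all genes lower. The groups overlapped in all 6 copies, since 2i shSetdb1 replicate 1 lay above serum shSetdb1 replicate 1, and 10.1% of all genes did not overlap in that direction. Over 18 other settings the adjusted p of Zscan4e ranged from 0.00187 to 0.207 (limma). Its call was lost with no filter on low values, with voom and with only the 2 groups compared in the fit. It was also lost without any 1 of the 2i shScr libraries, serum shScr replicate 1 or 3, serum shSetdb1 replicate 2 or 3, or 2i shSetdb1 replicate 2 or 3, where its change lay between −1.89 and −2.79. Without 2i shSetdb1 replicate 1 all 6 passed (−3.47 to −4.01) and the serum mean was 15.7 times the 2i mean. Without 2i shSetdb1 replicate 2 the changes were −1.69 to −1.95, 0 of 6 passed and the serum mean was 3.96 times the 2i mean. Without serum shSetdb1 replicate 1, 2 of 6 passed.

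Reads were spread over all 6 rows wherever there were many of them, in proportions that varied between libraries. In 2i shSetdb1 replicate 1 and the 6 serum libraries, the reads of Zscan4c, Zscan4d, Zscan4f and Zscan4-ps2 lay within 1.03-fold to 1.60-fold of each other. In the same libraries the mean of Zscan4b and Zscan4e, the pair that shares every base of the variable coding stretch above, was between 0.443 and 0.693 of the mean of those 4 copies. The shares of Zscan4d, the copy with the fewest bases in common with the others, were 18.3%, 21.2% and 19.5% of the summed reads in serum shSetdb1 and 16.1%, 18.5% and 13.3% in serum shScr. The 2 groups overlap, and the share of Zscan4d was higher in serum shSetdb1 in 3 of 3 same-numbered pairs. The share of Zscan4c was lower in serum shSetdb1 in 3 of 3 such pairs, and those of the remaining copies went both ways. Shares within a library add up to 100%, so they do not move separately, and no test was made of them. Across the 12 libraries the deposited values of any pair of copies had Pearson's r between 0.991 and 0.999, a description that shared depth and shared reads both enter. In 2i shScr replicate 3 the whole sum was 6 reads, 3 of Zscan4d and 3 of Zscan4e, so no proportions can be read there.

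**Figure D3:**
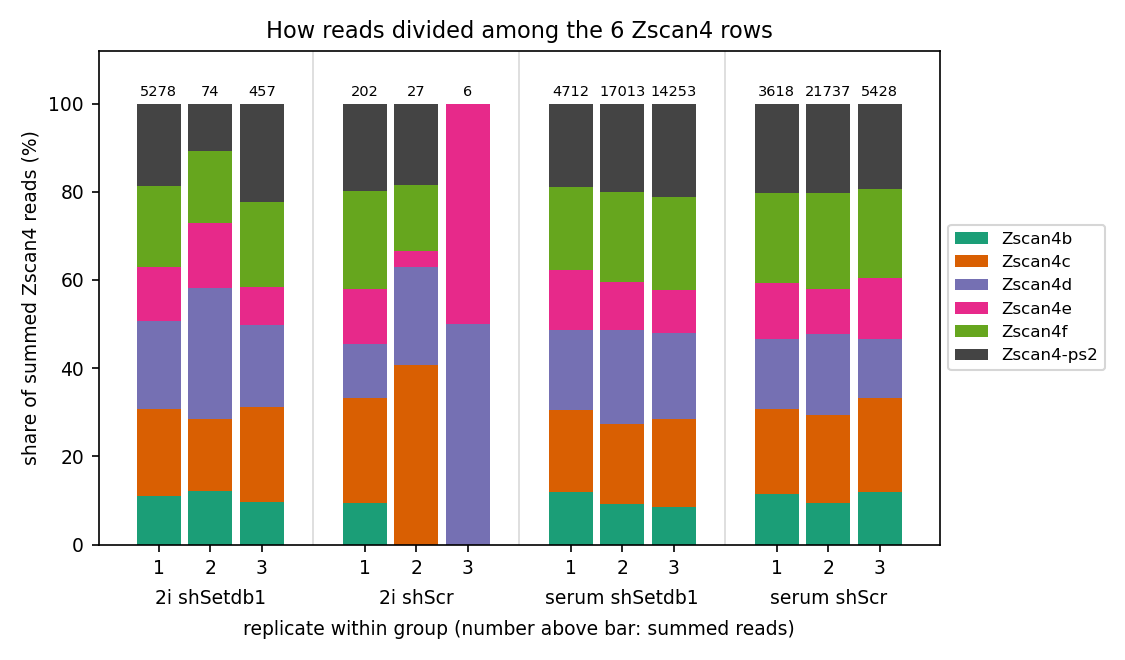
Share of the summed Zscan4 reads (%) taken by each of the 6 rows in the 12 libraries, with the summed reads above each bar. Bars resting on 3618 reads or more vary in these shares too, and the bars that differ most from them are those with 74, 27 and 6 reads.

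Levels were set side by side between copies per kilobase of the longest GENCODE transcript. The annotation used for counting was not given, so the lengths counted may differ. Zscan4f averaged 183 ± 205 normalised reads per kilobase in 2i shSetdb1, 6.43 ± 9.85 in 2i shScr, 1181 ± 705 in serum shSetdb1 and 1123 ± 1017 in serum shScr (SD, n = 3 each), the highest mean of the 6 in each group. Zscan4b averaged 109 ± 128 in 2i shSetdb1, 2.57 ± 4.45 in 2i shScr, 541 ± 267 in serum shSetdb1 and 557 ± 416 in serum shScr, the lowest mean in each group. In serum shSetdb1 the order below Zscan4f was Zscan4-ps2 at 943, Zscan4d at 933, Zscan4c at 882, Zscan4e at 646 and Zscan4b at 541 normalised reads per kilobase. In serum shScr it was Zscan4-ps2 at 856, Zscan4c at 853, Zscan4d at 729, Zscan4e at 625 and Zscan4b at 557. Neighbours in these orders differed by less than the SD between the libraries of a group, and a row's reads may include reads of its copies. Ranks also depend on the lengths taken, 1829 bases for Zscan4f against 2276 for Zscan4c and 2277 for Zscan4-ps2. Before division by length Zscan4c had a higher mean than Zscan4f in 2i shSetdb1 (363 against 334) and 2i shScr (14.1 against 11.8). Zscan4f had the higher mean of these copies in serum shSetdb1 (2160 against 2007) and serum shScr (2054 against 1940).

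MERVL, which is transcribed with Zscan4 at the 2-cell stage, was read from the separate repeat table, with other families of a MERVL or MT2 name. MERVL-int, the internal part of the provirus, had 88703, 7284 and 19654 normalised reads in 2i shSetdb1, 6636, 5193 and 2285 in 2i shScr, 59424, 120604 and 44884 in serum shSetdb1 and 91524, 134110 and 93601 in serum shScr. Its 2i shSetdb1 libraries all lay above the 2i shScr libraries, and replicate 2 was the lowest of that group, as for Zscan4. MT2_Mm, the long terminal repeat of MERVL, had 21226, 2937 and 5186 in 2i shSetdb1, 2810, 2445 and 1673 in 2i shScr, 13275, 33520 and 13411 in serum shSetdb1 and 20249, 44108 and 20389 in serum shScr. With log2 of the summed Zscan4 reads over 12 libraries, which share depth and source RNA, Pearson's r was 0.959 for MERVL-int and 0.943 for MT2_Mm, and it ranged from 0.384 to 0.886 for the other 5 families tested.

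After Setdb1 depletion in 2i, MERVL-int was higher (log2 change 2.44, SE 0.66, limma adjusted p = 0.0271) and so was MT2C_Mm, a related long terminal repeat (0.93, SE 0.26, adjusted p = 0.0333). These were 2 of 7 MERVL and MT2 families tested, where 10.4% of all 1097 repeat families tested were higher. MT2_Mm changed by 1.60 (SE 0.56, limma adjusted p = 0.0880) and passed without 2i shSetdb1 replicate 2 (2.21). It also passed with either form of replicate block (1.60), though replicate numbers did not pair the 2i libraries. The median family moved by 0.24 in that comparison. In 4 of 7 families the groups did not overlap, against 22.3% of families in that direction. Both calls were lost, MERVL-int's with median centring of the libraries (2.09), with quantile normalisation (1.85), with only the 2i groups in the fit, and without 2i shScr replicate 2 (2.58), 2i shScr replicate 3 (1.99) or 2i shSetdb1 replicate 1 (1.48), and 1 of the 2 was lost without serum shScr replicate 1 or 2i shScr replicate 1. In serum the change of MERVL-int was −0.61 (SE 0.66, limma adjusted p = 0.924) and that of MT2_Mm −0.54 (SE 0.56, adjusted p = 0.924). Replicate numbers pair the serum libraries, and both families were lower in serum shSetdb1 in 3 of 3 pairs. With the replicate block within medium the SE was 0.30 for MERVL-int and 0.27 for MT2_Mm, and neither passed (limma adjusted p = 0.362 and 0.422, unadjusted p = 0.0403 and 0.0493). How many of all families were lower in 3 of 3 pairs, or had such an unadjusted p with this block, was not counted. MT2_Mm and MERVL-int are parts of the same provirus, so they do not count as separate results. Without a block 0 of 7 passed, also with voom, against 3.37% of families. An unadjusted p under 0.05 was reached by 0 of 7 as well, against 103 of all 1097 families tested. The difference of the changes was 3.05 (SE 0.93) for MERVL-int and did not pass (limma adjusted p = 0.445). Of the 7 families 0 passed, also with voom, against 0.182% of families. An unadjusted p under 0.05 was reached by 3 of 7 and by 104 of all 1097 families tested. In control cells 5 of 7 families were lower in 2i than in serum, among them MERVL-int (−4.60, SE 0.66, limma adjusted p = 0.00349) and MT2_Mm (−3.53, SE 0.56, adjusted p = 0.00541), where 16.6% of families were lower and the median family changed by −0.52. In 7 of 7 families every 2i shScr library lay below every serum shScr library, against 39.1% of families. The count was 3 of 7 with median centring or quantile normalisation, and without serum shScr replicate 1 or 3 or 2i shScr replicate 1 or 3. In Setdb1-depleted cells MERVL-int changed by −1.55 (SE 0.66, limma adjusted p = 0.403) between the media. There 0 of 7 families passed, also with voom, against 0.547% of families. An unadjusted p under 0.05 was reached by 2 of 7 and by 122 of all 1097 families tested. Without 2i shSetdb1 replicate 1, 2 of 7 passed, MERVL-int (−2.52) and MT2_Mm (−2.21).

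**Figure D4:**
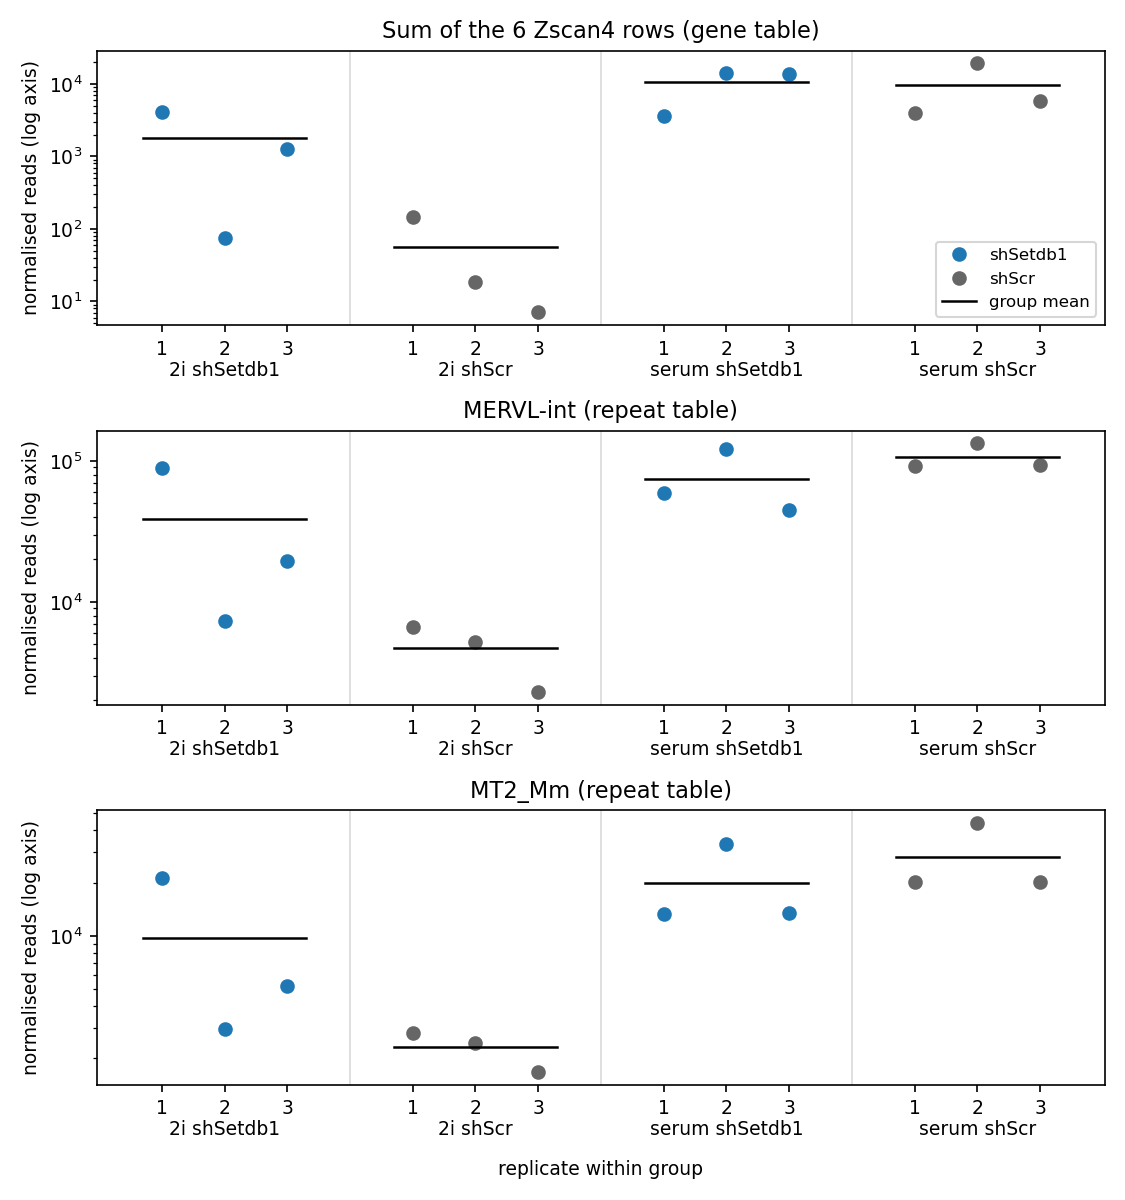
Normalised reads (log axes) in the 12 libraries for the sum of the 6 Zscan4 rows, for MERVL-int and for MT2_Mm, with the mean of each group as a line. In all 3 panels the 2i shScr libraries lie lowest as a group, and 2i shSetdb1 replicate 1 lies among the serum libraries for the Zscan4 sum, MERVL-int and MT2_Mm.

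Some other genes of the 2-cell stage passed in the comparisons above, 5 of them after Setdb1 depletion in 2i, where no Zscan4 copy did. Of 73 symbols listed, 57 had a row and 47 were tested. After Setdb1 depletion in 2i, 5 of 47 were higher and 0 lower (1.21% of all genes were higher), the median change was 0.89 against 0.01 over all genes tested, and 45 of 47 changes were above 0; voom called 2 of 47. Gm5662 had 2992, 528 and 1833 normalised reads in 2i shSetdb1 against 136, 61.4 and 31.7 in 2i shScr (log2 change 3.79, SE 0.74, limma adjusted p = 0.0158). Its groups did not overlap, whereas those of most Zscan4 copies did. Gm2016 had 1905, 394 and 1178 in 2i shSetdb1 against 124, 39.3 and 18.8 in 2i shScr (3.53, SE 0.74, limma adjusted p = 0.0257). Dub1a, a deubiquitinase gene, had 231, 53.8 and 274 against 7.94, 6.21 and 0 in the same groups (2.65, SE 0.51, limma adjusted p = 0.0136). Pramef8, of the Prame family, had 2176, 2192 and 1900 in 2i shSetdb1 against 334, 511 and 349 in 2i shScr (2.295, SE 0.27, limma adjusted p = 0.000224), and Cml2 had 176, 82.2 and 147 against 7.22, 19.999 and 4.70 (2.03, SE 0.34, limma adjusted p = 0.00501). In Pramef8 the 3 depleted libraries were alike, and replicate 2 was not low there. Gm5662 lost its call with voom (4.33) and without 2i shScr replicate 2 (3.75), 2i shScr replicate 3 (3.47) or 2i shSetdb1 replicate 3 (3.62). Gm2016 lost it in the same settings (4.24, 3.43, 3.17 and 3.39) and without 2i shSetdb1 replicate 1 (3.06), and Dub1a with voom (5.27) and without 2i shScr replicate 3 (2.38) or 2i shSetdb1 replicate 3 (2.32). With only the 2i groups in the fit Dub1a and Cml2 lost their calls.

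In serum, 1 of the 47 genes was higher after Setdb1 depletion and 0 were lower, with a median change of −0.13 (0.601% of all genes were higher). That gene was Cml2, with 266, 251 and 156 normalised reads in serum shSetdb1 against 14.1, 26.6 and 32.1 in serum shScr (2.14, SE 0.34, limma adjusted p = 0.00590). No Zscan4 copy passed in that comparison, and the difference between Cml2 and Zscan4 was not tested. Cml2 lost its call without serum shScr replicate 1 (1.99). The difference of the changes passed for 0 of 47 genes, also with voom, and for 0% of all genes. An unadjusted p under 0.05 was reached there by 13 of 47, against 2.79% of all genes tested. Between media in control cells, 21 of 47 genes were lower in 2i and 2 higher (1.88% and 1.73% of all genes), with a median of −1.45 against −0.05 over all genes tested; voom gave 9 lower and 2 higher. The lower ones with the largest changes were Gm5662 (−5.50, limma adjusted p = 0.00142), Gm2016 (−5.10, adjusted p = 0.00224), Gm8300 (−4.68, adjusted p = 0.00232), Gm6763 (−4.49, adjusted p = 0.00614), Gm4340 (−4.39, adjusted p = 0.00891) and BB287469 (−4.32, adjusted p = 0.00367). Gm6763 and Gm4340 lost the call with voom, and Gm4340 also without serum shScr replicate 2 (−3.58) or 2i shScr replicate 3 (−4.06). Pramef17 and Patl2 were higher in 2i (2.22 and 1.79, limma adjusted p = 0.00548 and 0.0176), but Patl2 did not pass without serum shScr replicate 1 (1.74) or 2 (1.81) or 2i shScr replicate 2 (1.75) or 3 (1.78). Among Setdb1-depleted cells 0 of 47 were lower in 2i, against 1.60% of all genes. At an unadjusted p under 0.05, 11 of 47 were lower and 6 higher, and 18.5% of all genes reached that p in either direction. By the adjusted test 3 were higher, namely Pramef17 (3.10, limma adjusted p = 0.000963), Patl2 (2.25, adjusted p = 0.00487) and Pramel6 (2.20, adjusted p = 0.00868), where 2.15% of all genes were higher. Pramel6 lost its call with voom (5.33), which gave 2 higher. Several of these genes have near-identical copies, so their single values carry the same uncertainty as those of Zscan4.

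**Figure D5:**
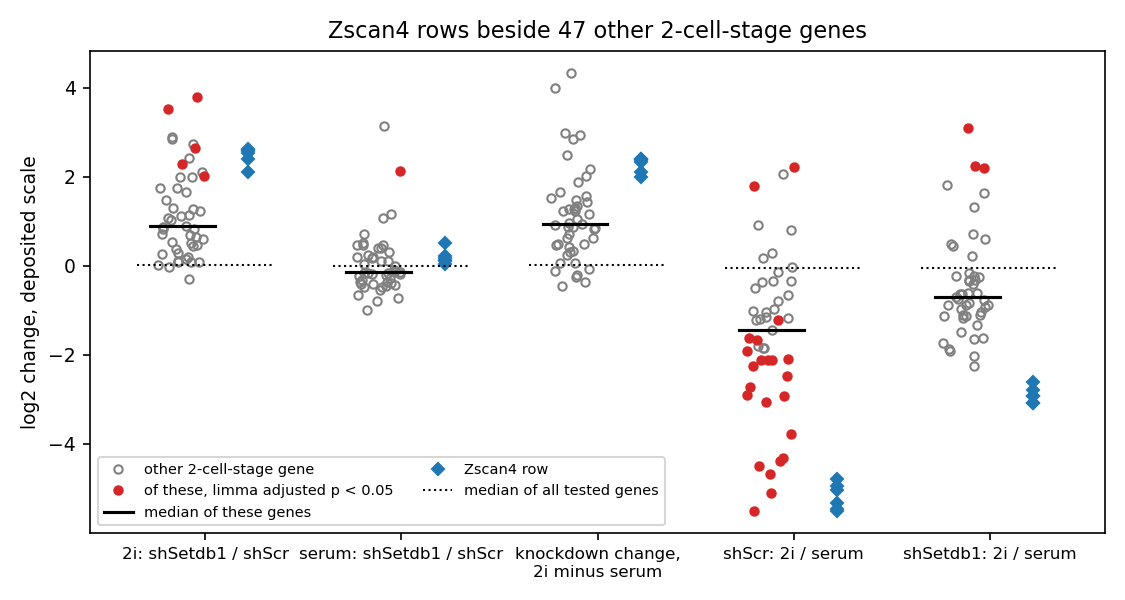
Change on the deposited log2 scale of 47 other 2-cell-stage genes (circles, filled where limma adjusted p is under 0.05, with their median as a line) and of the 6 Zscan4 rows (diamonds) in 5 comparisons, with the median of all tested genes as a dotted line. In shScr cells between media 21 of the 47 genes are lower in 2i with the 6 Zscan4 rows, and after Setdb1 depletion in 2i the 45 changes above 0 lie on the same side as the 6 rows.

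Of 50 genes described as activators or repressors of the 2-cell-like state, all of them tested, 4 passed in some comparison, and 1 of these was Setdb1. Between media, 2 of 50 were lower in 2i in control cells, against 1.88% of all genes, and 3 of 50 in depleted cells, against 1.60%. Dppa2, an activator of Dux and Zscan4, had 657, 222 and 180 normalised reads in 2i shSetdb1, 296, 139 and 75.1 in 2i shScr, 948, 1506 and 1146 in serum shSetdb1 and 994, 1604 and 696 in serum shScr. It was lower in 2i than in serum in control cells (log2 change −2.50, SE 0.46, limma adjusted p = 0.00769) and in Setdb1-depleted cells (−1.83, SE 0.46, adjusted p = 0.0407). Dppa4, its partner, was lower in 2i in control cells (−1.48, SE 0.29, limma adjusted p = 0.0114) and in depleted cells (−1.19, SE 0.29, adjusted p = 0.0358). Lin28a, an RNA-binding protein gene, was lower in 2i in depleted cells (−2.37, SE 0.59, limma adjusted p = 0.0365). Without serum shScr replicate 2 the control calls were lost for Dppa2 (−2.19) and Dppa4 (−1.27), and Dppa4 also lost its call without 2i shScr replicate 2 (−1.29) or 3 (−1.46). In depleted cells the calls were lost with voom and with only those 2 groups in the fit for all 3 genes, and with no filter on low values for Dppa2 and Lin28a. Dppa2 also lost it without serum shScr replicate 1, any 1 serum shSetdb1 library, 2i shScr replicate 2, or 2i shSetdb1 replicate 2 or 3 (−1.51 to −1.98). Dppa4 lost it without serum shScr replicate 1, any 1 serum shSetdb1 library, or 2i shSetdb1 replicate 2 or 3 (−1.03 to −1.30). Lin28a lost it without serum shScr replicate 2, serum shSetdb1 replicate 1 or 2, 2i shScr replicate 2, or 2i shSetdb1 replicate 2 or 3 (−1.93 to −2.37). Neither Dppa2 nor Dppa4 passed after Setdb1 depletion, with changes in 2i of 0.85 (limma adjusted p = 0.776) for Dppa2 and 0.55 (adjusted p = 0.768) for Dppa4. Dux had 14.6, 0 and 0 normalised reads in 2i shSetdb1, 0, 0 and 1.17 in 2i shScr, 16.7, 54.7 and 69.0 in serum shSetdb1 and 1.09, 38.2 and 20.3 in serum shScr. The only 2i shSetdb1 library with Dux reads was replicate 1, which also had the most Zscan4 reads of that group. In 2i shScr the only one was replicate 3, which had the fewest Zscan4 reads. Dux was highest in replicate 3 of serum shSetdb1, where the Zscan4 sum was highest in replicate 2. In serum shScr both were highest in replicate 2. No comparison passed for Dux (limma adjusted p = 0.0716 to 1.00).

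Genes of telomere maintenance and homologous recombination, the process that ZSCAN4 is known for, gave no call. Of 28 such genes tested 0 passed in each of the 5 comparisons, with limma and with voom. At an unadjusted p under 0.05 there were 0 genes in serum, 2 in 2i, 1 for the difference of the changes, 3 between media in control cells and 2 in depleted cells. Over all genes tested these shares were 5.09%, 7.37%, 2.79%, 17.3% and 18.5% in the same order, and 0.649%, 1.27%, 0%, 3.62% and 3.75% passed the adjusted test. The 12 other genes with a Zscan name, which encode related SCAN-domain zinc finger proteins outside the cluster, likewise gave 0 calls in the 5 comparisons with limma and with voom. Among them 1 gene had an unadjusted p under 0.05 after depletion in 2i and 1 between media in depleted cells, Zscan5b in both cases (limma adjusted p = 0.565 and 0.163).

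The 8 tested genes whose deposited values followed log2 of the summed Zscan4 reads most closely over the 12 libraries were Gm12800 (Pearson's r = 0.971), Gm12794 (0.968), Usp17l5 (0.965), Dub1 (0.964), Gm6763 (0.963), Gm8300 (0.959), Gatm (0.959) and Gm5662 (0.958). After the group means were taken away, r over the same libraries was 0.792 to 0.882, and the libraries share depth in both measures. Gm12800 had 224, 14.2 and 49.8 normalised reads in 2i shSetdb1, 7.22, 2.76 and 0 in 2i shScr, 164, 501 and 316 in serum shSetdb1 and 122, 445 and 291 in serum shScr. Within each of the 4 groups its libraries fell in the same order as the summed Zscan4 reads. The 8 genes were picked by r over these same libraries. Both this order and the r without group means are therefore favoured by the choice. Of the 8 genes 6 were in the list of 2-cell-stage genes, against 47 of all 14487 genes tested. That list was chosen with earlier results of these data known, and several of its genes have near-identical copies. The other 2 were Gm12800 and Gatm, the enzyme of the first step of creatine synthesis.

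Genes beside the cluster could hardly be followed. None of the 5 annotated genes on each side, nor of the 24 annotated between the first and the last member in RefSeq's order, had a row in the deposited table. The nearest genes with a row, a choice made after this was seen, were on 1 side Gm6900, Nlrp4b and the vomeronasal receptor genes Vmn1r69, Vmn1r70 and Vmn1r71, and on the other Vmn1r72, Vmn1r73, Vmn1r74, Vmn1r75 and Vmn1r76. All had 0 reads in every library, except Vmn1r74 with at most 4.44 normalised reads and Gm6900. Gm6900 averaged 40.2 ± 3.75 normalised reads in 2i shSetdb1, 50.9 ± 19.8 in 2i shScr, 35.3 ± 6.54 in serum shSetdb1 and 68.8 ± 43.2 in serum shScr (SD, n = 3 each), and no comparison passed for it (limma adjusted p = 0.813 to 1.00).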

How the data were processed

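RNA from 12 libraries, 3 in each of 4 groups, was measured by the authors. The deposited gene and repeat tables hold log2-scale values. Per the submitters' processing notes, Trim Galore 0.3.3, TopHat2 2.0.9, DESeq2 and mm9 were used, and the values have the form of DESeq2's variance-stabilised log2 values. The read counter, its annotation, its handling of reads that match several places and its use of strand were not given in the sources at hand. The tables hold 0 other per-sample columns.

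Whole reads were recovered by inverting the deposited transformation, and 100% of values up to 1000 reads came out whole within 0.01. Dividing them by size factors gave normalised reads. Total gene reads were 4821181 to 15509401 per library, and limits for 0 reads (3 reads) cover counting error only. The deposited log2 values were fitted with limma 3.58.1 in R 4.3.3, with 1 mean per group over all 12 libraries and a mean-dependent prior. Features whose mean lay at least 0.5 above the table's lowest value were tested, which left 14487 of 26061 genes and 1097 of 1217 repeat families. Benjamini-Hochberg adjusted p-values under 0.05 passed. The fitting code was run on simulated counts, with changes in serum shSetdb1 only and the same dispersion for every gene. That spread was not taken from the Zscan4 rows, so the run does not bear on their calls. Sequences were read with Biopython 1.88 from GENCODE and RefSeq files, and tables were handled with Python 3.11.15, numpy 2.4.6 and pandas 2.3.3. Members were summed as log2 of summed normalised reads plus 1, with no test.

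The members and the gene lists were chosen with earlier results of these data known. Named genes are all members, Setdb1, at most 6 genes per list and comparison that passed, MERVL-int and MT2_Mm, the 8 genes most like the summed reads, and the neighbours of the cluster. Replicate numbers were taken to pair groups when deviations from the group means correlated above 0.1 for each number. They paired the serum groups, at 0.58, 0.23 and 0.51 for numbers 1 to 3. With the replicate block no member passed in serum (limma adjusted p = 0.992 to 1.00, and 0.880 to 0.995 with the block within medium). The alternatives were no filter, median centring, quantile normalisation, voom on recovered reads, only the groups compared, 2 forms of replicate block, and each library left out. For the sum, a pseudocount of 10 and RPM were used.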

Additional observations from a re-analysis of the deposited data

How the results depend on the processing

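All 6 copies stayed lower in 2i than in serum in control cells, and passed in every setting except voom (0 of 6). After Setdb1 depletion in 2i the count passing was 0 of 6 in most settings, 6 with the replicate block within medium, and 0 to 6 with 1 library left out. Between media in depleted cells it was 0 of 6 with no filter, voom or only the groups compared, 6 with the replicate block, and 0 to 6 with 1 library left out, against 1 as reported. Of the 7 MERVL and MT2 families, the number passing after depletion in 2i was 0 with median centring, quantile normalisation or only the groups compared, and 0 to 2 with 1 library left out. For the difference of the changes it was 3 with the replicate block within medium. Between media in control cells it was 3 with median centring or quantile normalisation and 3 to 5 with 1 library left out, and in depleted cells 0 to 2. After depletion in serum, leaving out 1 library moved the change of Zscan4b over −0.36 to 0.60, Zscan4c over −0.36 to 0.78, Zscan4e over −0.31 to 0.64, Zscan4f over −0.31 to 0.86 and Zscan4-ps2 over −0.23 to 0.90. Of the 47 other 2-cell-stage genes, 21 were lower in 2i control cells, against 9 with voom. The cause was not tested in any of these. Replicate numbers did not pair the other groups (correlations of deviations 0.46, 0.06 and 0.52 within 2i, with 4 of 6 libraries closest to their own number), so the replicate block results there rest on a shared number only. The block within medium gives no value between media, and a fit of only the groups compared gives none for the difference. Few reads limit the 2i shScr values, where the sum rests on 6 to 202 reads, and shared sequence limits every single-copy value.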
